A study of Mus musculus with 8 samples.

Results

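The glucose, amino acid and zinc transporters measured here were 73 genes of 19943 on the array, chosen by name: every gene whose symbol belongs to the solute carrier families Slc1, Slc2, Slc3, Slc7, Slc30, Slc38 or Slc39. The rule itself used no measured value, but the families were chosen with earlier results of these data known. The 73 genes had 76 probe sets, each naming a single gene, and for the 3 genes with 2 probe sets the one with the higher mean was taken. The symbols of Slc7a6os and Slc2a4rg-ps match the rule although neither encodes a carrier, so 71 carriers remained, with 7 in Slc1, 12 in Slc2, 2 in Slc3, 15 in Slc7, 11 in Slc38, 10 in Slc30 and 14 in Slc39.

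The values come from 8 Affymetrix Mouse Gene 1.0 ST arrays, hybridised with RNA of total mammary cell suspensions that had not been sorted, 4 from parous mice and 4 from virgin mice of the same age. All mice were of the FVB/NHanHsd strain and carried no transgene that the sources used here name. Parous mice were mated at 42 days of age, went through pregnancy and 21 days of lactation, and the labels give 28 days of involution, whereas the methods of the study give a longer time after weaning. Each array held RNA from the fourth mammary glands of 5 mice pooled together, so the 4 arrays of a group are 4 pools. The limma p-values below set the group difference against the spread between pools, with variances moderated over all probe sets. Lymph nodes, adipocytes and red blood cells had been removed and fibroblasts reduced. Estrous stage is not given for any pool, and the study states that it pooled at least 5 mice to control for the cycle. In such bulk samples fewer cells of a type and less RNA per cell cannot be told apart.

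Milk formation depends on nutrient import across the basal membrane of the secretory cell. Glucose enters through facilitative carriers of the Slc2 family and feeds lactose synthesis, amino acids enter through sodium-coupled carriers (Slc1, Slc38) and through exchangers built from a heavy chain (Slc3) and a light chain (Slc7), and zinc is moved into the cytosol by Slc39 (ZIP) carriers and out of it, into vesicles or out of the cell, by Slc30 (ZnT) carriers. In the mammary gland many of these genes are known to be induced at lactation. The comparison here concerns glands that had returned to the resting state after a lactation.

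None of the 73 transporter genes passed the criteria for a parity difference in either direction. A gene had to differ more than 1.5-fold, at a limma p adjusted over all probe sets of less than 0.05. Its mean log2 value also had to exceed 2, which is 4 on the linear scale. This last criterion removed nothing, as the lowest mean of any probe set was 2.34 in log2. Across the array 138 of 34760 probe sets passed, 0.397% of them, and among genes with 1 probe set each 0.401% passed (0.181% higher and 0.221% lower in parous mice). With fold change and expression left aside, again no transporter gene had an adjusted p under 0.05 in limma. At an unadjusted p under 0.05 limma found 8 of the 73, or 11.0%, of which 6 had the higher mean in parous and 2 in virgin mice, beside 11.4% of all probe sets and 14.0% of all genes (6.54% higher, 7.49% lower). The same fit without moderated variances also left none at an adjusted p under 0.05 and gave 8 at an unadjusted p under 0.05, 7 higher and 1 lower. The share of transporter genes at an unadjusted p under 0.05 thus lay near the background.

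The 4 parous and 4 virgin values did not overlap for 8 of the 73 genes, or 11.0%, beside 7.60% of all probe sets and 9.55% of all genes. For 7 of them the parous arrays were higher (4.61% of all genes) and for 1 the virgin arrays were (4.94%). The log2 fold changes, parous minus virgin throughout, ran from -0.66 to 0.79, with 43 above 0 and 30 below, and had a median of 0.03, beside 0.0016 for all probe sets and 0.0024 for all genes. For 58 of the 73 the 95% confidence interval of the fold change lay wholly within a 1.5-fold change either way, which held for 74.4% of all probe sets and 80.8% of all genes. For the others the interval reached past a 1.5-fold change, and the measured fold change itself exceeded 1.5 for 3, Slc38a11, Slc39a14 and Slc38a1. Levels on an array are given against its median over all probe sets, which lay between 6.29 and 6.43: 47 of the 73 genes were above it on every array and 20 were below it on every array.

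**Figure D1:**
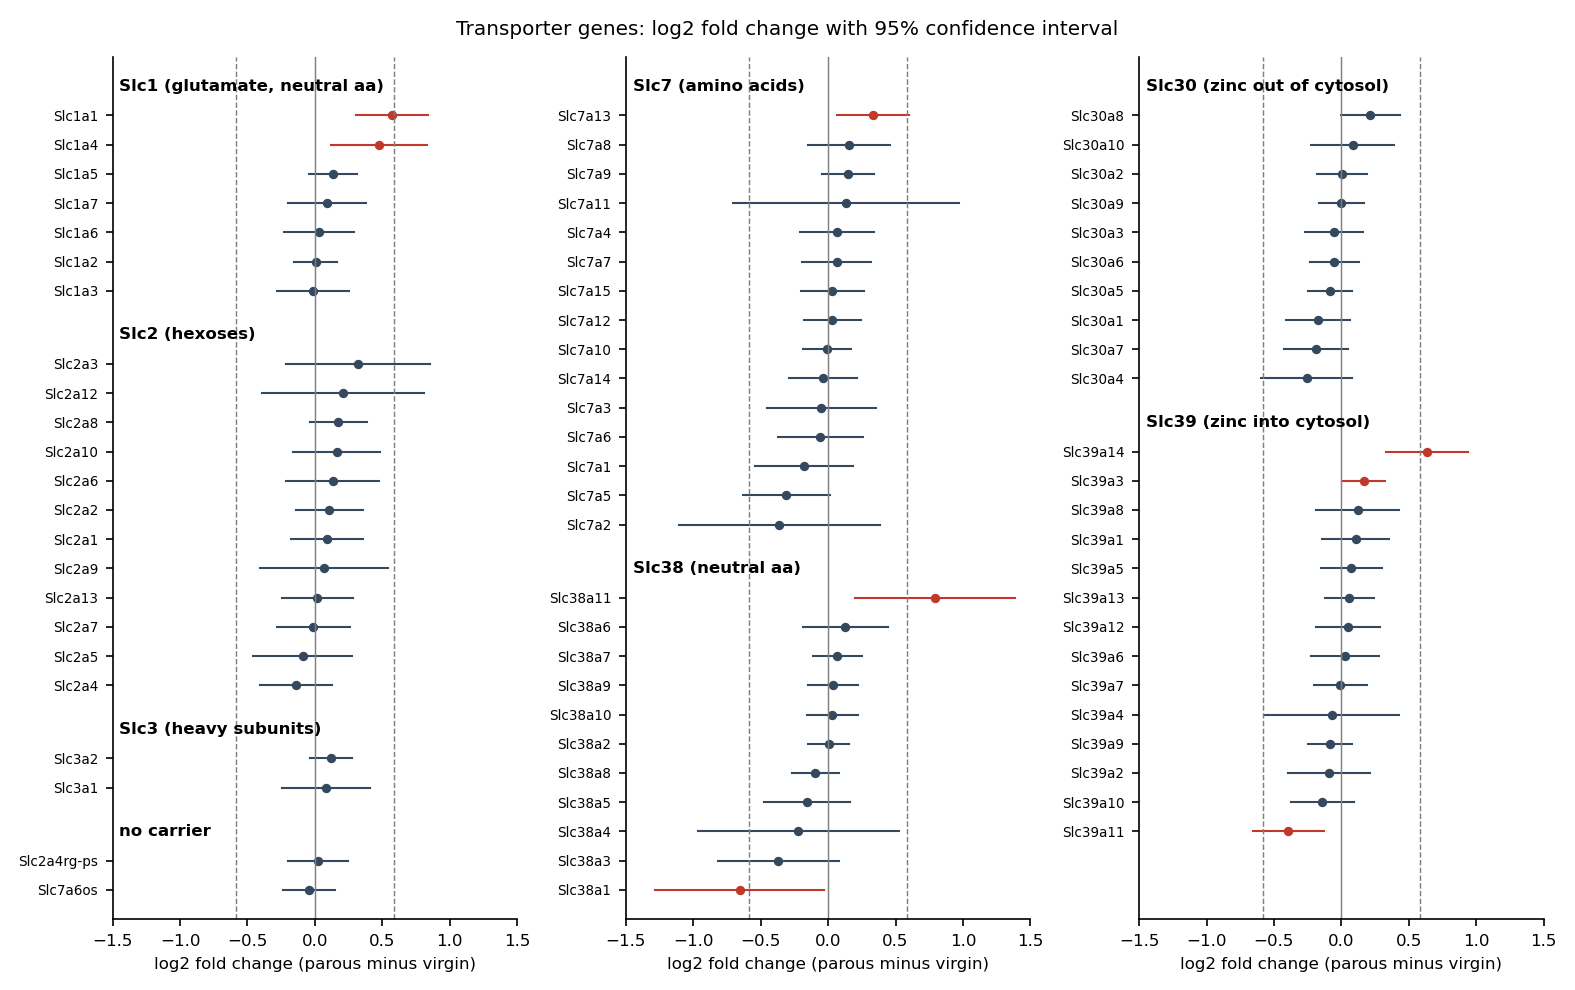
Log2 fold change (parous minus virgin, x axis) of each transporter gene, grouped by family, with its 95% confidence interval from limma. Dashed lines mark a 1.5-fold change either way, red marks an unadjusted p under 0.05, and none of the 73 genes had an adjusted p under 0.05.

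Among the 12 genes of the Slc2 family, none had even an unadjusted p under 0.05, and their median log2 fold change was 0.10. Slc2a1 (GLUT1), the main facilitative glucose carrier of the lactating gland, lay far above the array median on every array. Its log2 values were 12.70, 12.62, 12.33 and 12.49 in parous and 12.65, 12.51, 12.39 and 12.22 in virgin mice. The groups overlapped almost fully, and the log2 fold change was 0.09 (95% confidence interval -0.18 to 0.36, limma adjusted p = 0.839). For these array values the interval lay wholly within a 1.5-fold change either way.

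Slc2a8 (GLUT8), which sits on intracellular membranes, was the only Slc2 gene whose groups did not overlap. It measured 7.76, 7.62, 7.75 and 7.67 in parous and 7.62, 7.58, 7.61 and 7.30 in virgin mice. The lowest parous and the highest virgin value are equal to the second decimal, and virgin 4 alone lay clearly lower. Its log2 fold change was 0.17 (interval -0.04 to 0.38), with a limma adjusted p = 0.531. The exact permutation p = 0.029 is the smallest that 4 arrays against 4 allow. Every gene whose groups did not overlap had this permutation p, so it only restates the missing overlap. It was not adjusted over genes. Slc2a3 (GLUT3), the high-affinity carrier best known from neurons, measured 9.31, 8.67, 8.41 and 8.79 in parous and 8.78, 8.20, 8.84 and 8.09 in virgin mice. Virgin 2 and virgin 4 were its lowest arrays, and its log2 fold change of 0.32 (adjusted p = 0.673) was -0.012 without them. Slc2a4 (GLUT4), the insulin-responsive carrier of fat and muscle, had a log2 fold change of -0.14 (interval -0.40 to 0.13, adjusted p = 0.722), and all 8 of its values lay between 7.70 and 8.30.

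The Slc1 family takes up glutamate and aspartate or small neutral amino acids. Of its 7 genes 2 (28.6%), Slc1a1 and Slc1a4, had an unadjusted p under 0.05, beside 14.0% of all genes. Both had the higher mean in parous mice. Slc1a1 (EAAT3), a carrier for glutamate, aspartate and cysteine, had the smallest p of all 73 genes. Its log2 values were 9.44, 9.59, 9.18 and 9.39 in parous and 8.84, 9.04, 8.64 and 8.81 in virgin mice. All 4 parous arrays were above all 4 virgin arrays, and the means were 9.40 ± 0.17 and 8.83 ± 0.17 (SD, n = 4 each). This gave a log2 fold change of 0.57 (interval 0.30 to 0.84), a 1.48-fold difference, with an exact permutation p = 0.029. It missed both the 1.5-fold criterion and that on the limma adjusted p, which was 0.110, and 0.072 to 0.289 over the 14 other fits.

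Slc1a4 (ASCT1), a carrier for alanine, serine and cysteine, measured 9.69, 9.37, 9.46 and 9.36 in parous and 9.40, 8.97, 8.97 and 8.65 in virgin mice. Virgin 1 lay within the parous range and the other virgin arrays below it. Its log2 fold change was 0.48 (interval 0.12 to 0.83, adjusted p = 0.296). Slc1a5 (ASCT2), the glutamine carrier of dividing cells, had a log2 fold change of 0.13 (interval -0.04 to 0.31, adjusted p = 0.575), with all of its values between 9.32 and 9.64. For the other 4 Slc1 genes, which include the glial and neuronal glutamate carriers, the group means differed by at most 0.09 in log2, and 3 of the 7 Slc1 genes lay below the array median on every array.

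Heteromeric exchangers pair a heavy chain of Slc3 with a light chain of Slc7. Slc3a2 (the CD98 heavy chain) measured 13.05, 13.01, 13.01 and 13.03 in parous and 12.96, 12.82, 12.98 and 12.86 in virgin mice. The groups did not overlap (exact permutation p = 0.029), yet the log2 fold change was only 0.12 (interval -0.03 to 0.27), a 1.09-fold difference, with a limma adjusted p = 0.565. Slc7a5 (LAT1), the light chain that with Slc3a2 imports leucine and other large neutral amino acids, lay the other way. It measured 11.53, 11.29, 10.99 and 11.36 in parous and 11.46, 11.53, 11.52 and 11.90 in virgin mice. Virgin 4 was the highest array and parous 3 the lowest, and the log2 fold change was -0.31 (interval -0.63 to 0.01, adjusted p = 0.451).

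Slc7a11 (xCT), the light chain that exchanges cystine for glutamate, varied more within the groups than any other transporter gene. Its log2 values were 9.20, 8.90, 7.79 and 8.51 in parous and 9.20, 8.60, 7.72 and 8.34 in virgin mice. Arrays 1 were high and arrays 3 low in both groups, and the pooled SD was 0.61, beside a median of 0.17 over the 73 genes and 0.15 over all genes. The log2 fold change was 0.13 with an interval from -0.71 to 0.97 (adjusted p = 0.940) in the fit without the replicate numbers. Slc7a2, a carrier for arginine and lysine that was picked out after its values were seen, measured 9.89, 9.59, 9.88 and 9.45 in parous and 10.53, 9.83, 10.76 and 9.14 in virgin mice. The virgin arrays spanned the whole parous range, and its log2 fold change was -0.36 (adjusted p = 0.741) over all arrays and -0.94 (adjusted p = 0.108) without virgin 2 and virgin 4.

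The light chains and heavy chain best known from the kidney were dim. Slc3a1 (rBAT), Slc7a9, which pairs with it to take up cystine, and Slc7a13 were below the array median on every array, with means over the group between 4.36 and 5.47. Slc7a13 had an unadjusted p under 0.05, with a log2 fold change of 0.33 (interval 0.07 to 0.60, adjusted p = 0.329). The values were 4.52, 4.67, 4.89 and 4.70 in parous and 4.23, 4.31, 4.63 and 4.28 in virgin mice, which overlap at virgin 3. Slc3a1 and Slc7a9 had log2 fold changes of 0.08 and 0.15 (adjusted p = 0.894 and 0.564). Over all 15 Slc7 genes the median was 0.03, with 8 genes above 0 and 7 below.

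The Slc38 family, sodium-coupled carriers for glutamine and other neutral amino acids, held the largest differences in both directions and a median log2 fold change of 0.0031. Slc38a11, a little-studied member, measured 7.59, 7.81, 7.98 and 7.44 in parous and 7.36, 6.86, 7.27 and 6.15 in virgin mice. The groups did not overlap, but virgin 1 and virgin 3 came close to parous 4, while virgin 4 lay below the array median. Its log2 fold change was 0.79 (interval 0.20 to 1.39), a 1.73-fold difference, with a limma adjusted p = 0.298 and an exact permutation p = 0.029. Without virgin 2 and virgin 4 it was 0.39 (adjusted p = 0.652).

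Slc38a1 (SNAT1), a carrier for glutamine and alanine, measured 9.61, 8.87, 8.23 and 8.78 in parous and 9.41, 9.48, 9.95 and 9.29 in virgin mice. Parous 1 lay among the virgin arrays and the other parous arrays below all of them. The log2 fold change was -0.66 (interval -1.28 to -0.03, adjusted p = 0.412), and its second probe set, nearer to the array median, gave -0.69 (adjusted p = 0.460). Slc38a2 (SNAT2), which cells induce when amino acids are short, was among the steadiest genes, with all 8 values between 12.63 and 12.78 and a log2 fold change of 0.0031 (interval -0.15 to 0.15, adjusted p = 0.994). Slc38a3 (SNAT3), a glutamine carrier of liver and kidney, measured 6.76, 6.87, 6.52 and 6.46 in parous and 6.65, 7.41, 6.70 and 7.33 in virgin mice. Only virgin 2 and virgin 4 lay above the parous range, and the log2 fold change was -0.37 (interval -0.82 to 0.08, adjusted p = 0.536), and -0.022 without them.

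**Figure D2:**
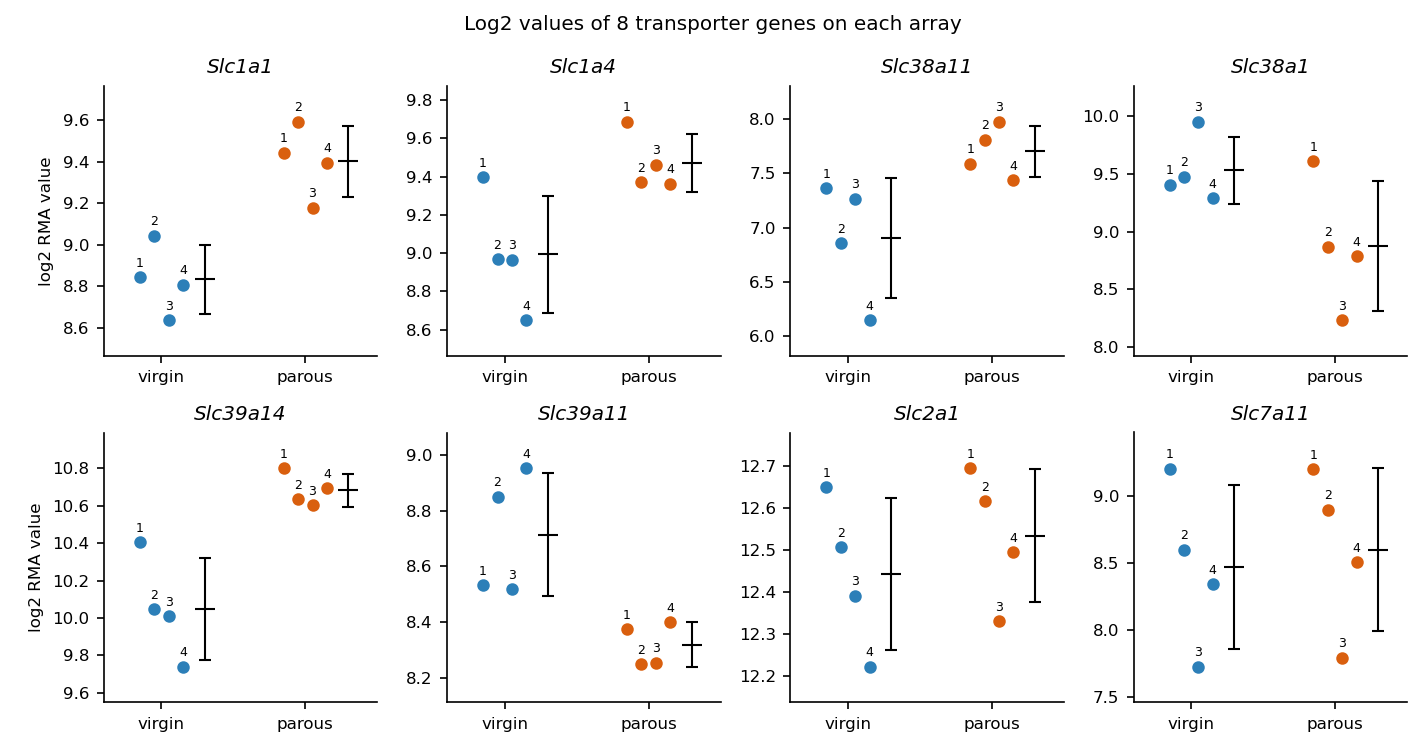
Log2 RMA value (y axis, scaled for each gene) of 8 transporter genes on each virgin and parous array, numbered by replicate, with bars for the mean ± SD of 4 arrays. Slc1a1, Slc38a11, Slc39a14 and Slc39a11 have no overlap between the groups, whereas Slc2a1 and Slc7a11 overlap throughout.

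Zinc transport is divided between exporters and importers, and no gene of either set passed. The median log2 fold change was -0.05 over the 10 Slc30 genes and 0.04 over the 14 Slc39 genes. No Slc30 gene had an unadjusted p under 0.05 in this fit, which leaves out the replicate numbers. Slc30a1 (ZnT1), the exporter of the plasma membrane, is a known target of the metal-responsive factor Mtf1, which binds metal response elements, and Slc30a4 (ZnT4) is the exporter whose loss in the lethal milk mouse leaves the milk short of zinc. Their promoters are shown because the Mtf1 core is the motif searched for below. The lines give the 250 bases before the gene start on the gene's strand, 5′ to 3′, from RefSeq on GRCm38.p6 (the reference strain, not FVB), chr1:191906531-191906780 on the + strand for Slc30a1 and chr2:122702664-122702913 on the - strand for Slc30a4. Capitals mark matches to the cores TGCACNC or TGCGCNC on either strand.
Slc30a1: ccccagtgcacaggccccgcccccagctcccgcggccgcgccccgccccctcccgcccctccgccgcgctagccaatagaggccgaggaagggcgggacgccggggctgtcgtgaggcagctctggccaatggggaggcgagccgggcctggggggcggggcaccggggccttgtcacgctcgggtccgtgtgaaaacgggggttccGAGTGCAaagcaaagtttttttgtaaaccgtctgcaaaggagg
Slc30a4: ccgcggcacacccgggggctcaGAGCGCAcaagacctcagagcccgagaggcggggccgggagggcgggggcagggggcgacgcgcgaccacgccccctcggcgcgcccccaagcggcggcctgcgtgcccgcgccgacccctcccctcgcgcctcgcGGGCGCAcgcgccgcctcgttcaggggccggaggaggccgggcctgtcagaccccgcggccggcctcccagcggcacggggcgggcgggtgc

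In Slc30a1 the printed match begins at position -43 from the gene start, and in Slc30a4 the printed matches begin at -228 and -92. The windows used for counting also reach past the start, and there each gene held 1 more core that the printed bases do not contain whole, beginning at 30 in Slc30a1 and at -6 in Slc30a4, with the start as position 0. Of the 24 Slc30 and Slc39 genes, 20 had a promoter window of 300 bases (250 before to 50 after the start), 25 windows in all. Either core was in 12 of the 25, or 48.0%, beside 25.7% of 32851 windows of all genes. The E-box CACGTG was searched for in the windows of 36 of the 47 genes of Slc1, Slc2, Slc3, Slc7 and Slc38. It was in 5 of 46, or 10.9%, beside 7.15% of all windows. A match describes the letters only, and windows of 1 gene can overlap.

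With these promoters, Slc30a1, named only for its promoter and outside the rule for named genes, measured 8.43, 8.52, 8.38 and 8.22 in parous and 8.64, 8.73, 8.38 and 8.48 in virgin mice. The groups overlapped, and the log2 fold change was -0.17 (interval -0.41 to 0.07, adjusted p = 0.599). Slc30a4 measured 9.60, 9.83, 9.43 and 9.55 in parous and 9.79, 10.23, 9.58 and 9.85 in virgin mice. Virgin 2 was the highest array, and the log2 fold change was -0.26 (interval -0.59 to 0.08, adjusted p = 0.569). Slc30a7 (ZnT7), which loads zinc into the Golgi apparatus, had a log2 fold change of -0.19 (interval -0.43 to 0.05, adjusted p = 0.561).

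Slc30a2 (ZnT2), the exporter that moves zinc into milk and whose loss gives zinc-deficient milk in women, stayed near the array median in both groups. Its log2 values were 6.39, 6.29, 6.31 and 6.33 in parous and 6.23, 6.44, 6.22 and 6.42 in virgin mice, so only 2 of its 8 values exceeded the median of their array. The log2 fold change was 0.0043 (interval -0.18 to 0.19, adjusted p = 0.993). Slc30a8 (ZnT8), known from the insulin granules of pancreatic beta cells, was below the array median on every array, although its groups did not overlap (log2 fold change 0.21, limma adjusted p = 0.449, exact permutation p = 0.029).

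Among the zinc importers, 3 of 14 (21.4%) had groups that did not overlap, beside 9.55% of all genes. The same 3 had an unadjusted p under 0.05, beside 14.0% of all genes. Slc39a14 (ZIP14), an importer of zinc, manganese and iron, measured 10.80, 10.63, 10.60 and 10.69 in parous and 10.40, 10.05, 10.01 and 9.74 in virgin mice. The parous arrays lay close together, and the virgin arrays lay below them and were more spread out. Means were 10.68 ± 0.09 and 10.05 ± 0.27 (SD, n = 4 each), the log2 fold change was 0.63 (interval 0.33 to 0.94), a 1.55-fold difference, and the exact permutation p = 0.029. It missed the criteria on its limma adjusted p = 0.120 alone. Over the 14 other fits the adjusted p ran from 0.045 to 0.373: it passed when virgin 1 was left out (log2 fold change 0.75, adjusted p = 0.045) and was furthest from passing without virgin 2 and virgin 4 (0.48, adjusted p = 0.373).

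Slc39a11 (ZIP11), an importer placed on intracellular membranes, was the one gene whose virgin arrays were all above its parous arrays. It measured 8.37, 8.25, 8.25 and 8.40 in parous and 8.53, 8.85, 8.52 and 8.95 in virgin mice. Virgin 2 and virgin 4 were the highest, and virgin 1 and virgin 3 lay just above the parous arrays. The difference was -0.39 in log2 (interval -0.66 to -0.13), with a limma adjusted p = 0.244 and an exact permutation p = 0.029, and it was -0.21 (adjusted p = 0.662) without virgin 2 and virgin 4. Slc39a3 (ZIP3), expressed in mammary epithelium as an importer at the cell surface, measured 8.30, 8.20, 8.27 and 8.18 in parous and 8.08, 8.01, 8.16 and 8.05 in virgin mice. Its groups were separate but close, with a log2 fold change of 0.16 (interval 0.01 to 0.32), a 1.12-fold difference, and an adjusted p = 0.411. Slc39a8 (ZIP8), the close relative of Slc39a14, had a log2 fold change of 0.12 (interval -0.19 to 0.43, adjusted p = 0.808).

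For Slc39a1 (ZIP1), the probe set with the higher mean carries a number among those of genes on chromosome 2, whereas the gene lies on chromosome 3. The other probe set is numbered among its neighbours on chromosome 3. Their log2 fold changes were 0.11 (adjusted p = 0.786) and 0.04 (adjusted p = 0.946), so both left the gene without a call.

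When every gene was set to a mean of 0 across the arrays and the genes of a family were then averaged, the groups overlapped in every family except Slc1. There the parous arrays had scores of 0.08, 0.05, 0.05 and 0.19 and the virgin arrays of -0.09, -0.10, -0.07 and -0.11. All 4 parous arrays lay above all 4 virgin arrays, but among the 7 genes Slc1a1 and Slc1a4 had the largest differences. In Slc2 the virgin arrays 2 and 4, at -0.12 and -0.20, lay below all the others, which ran from 0.0068 to 0.08. In Slc30 the same arrays, at 0.10 and 0.08, lay above all the others, which ran from -0.04 to -0.01. Over all 73 genes the mean was -0.0039 to 0.033 on the parous and -0.027 to -0.0071 on the virgin arrays, separate but by less than the spread within either group.

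**Figure D3:**
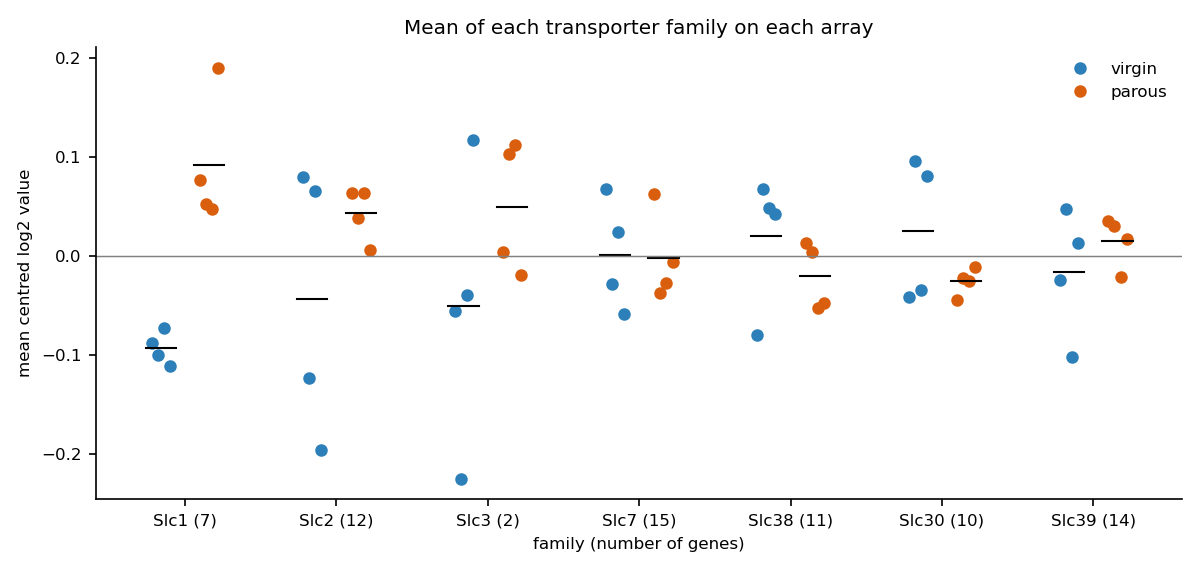
Mean centred log2 value of each transporter family (y axis) on each virgin and parous array, with the number of genes in brackets and a line at each group mean. The Slc1 arrays separate by group, from 0.05 upward in parous and from -0.07 downward in virgin mice, and the other families overlap.

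Virgin 2 and virgin 4 also stood apart in a list of 24 proliferation genes. Its mean centred log2 score was 1.09 and 1.58 on them, -0.23 and -0.21 on virgin 1 and virgin 3 and -0.78 to -0.41 on the parous arrays. None of its genes passed, but 23 of 24 had the lower mean in parous mice (median log2 fold change -1.25). In limma 18 (75.0%) had an unadjusted p under 0.05, all lower in parous mice, beside 14.0% of all genes. Without virgin 2 and virgin 4 none of the 73 transporter genes passed either, 5 had an unadjusted p under 0.05 (6.85%, beside 7.55% of all probe sets), and the median log2 fold change was 0.04. Of the 25 named transporter genes, 13 had a log2 fold change that shrank by more than 1.5 times or turned without them, among them Slc1a4 at 0.29 and Slc30a4 at -0.08, whereas Slc1a1 was 0.66. In Slc2a3 and Slc7a2 these arrays were the lowest virgin arrays, and in Slc38a3 and Slc39a11 the highest. The part of proliferating cells in those values was not tested.

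The samples are titled total mammary epithelial cells. Above the array median on every array were 8 of 8 pan-luminal, 8 of 8 luminal progenitor, 6 of 6 hormone-sensing luminal and 10 of 10 basal markers. So were 8 of 8 fibroblast, 8 of 8 endothelial, 8 of 8 macrophage, 6 of 9 plasma cell and B cell and 4 of 6 T cell markers. Only 2 of 8 adipocyte, 1 of 7 skeletal muscle and none of 2 red blood cell markers were. Of all 19943 genes, 11197 lay above it on every array, so such a level cannot show that a cell type was enriched. Of these lists, plasma cell and B cell markers had 4 of 9 genes that passed, Jchain, Derl3, Tnfrsf17 and Tnfrsf13b. All 4 were higher in parous mice, beside 0.181% of all genes. The median log2 fold change of that list was 0.89, with scores of 0.21 to 0.87 in parous and -1.06 to 0.48 in virgin mice. Among its genes that did not pass, Ms4a1, Cd79a and Cd79b had log2 fold changes of -0.42, 0.75 and 0.40 (limma adjusted p = 0.919, 0.763 and 0.861). In the hormone-sensing luminal list 1 of 6 passed, lower in parous mice (median -0.86, scores -0.67 to -0.27 and 0.16 to 0.64). In the basal and myoepithelial list 1 of 10 passed, also lower (median -0.30, scores -0.29 to -0.13 and 0.02 to 0.27). Over all genes 0.221% passed as lower. At an unadjusted p under 0.05 in limma, 5 of these 6 and 5 of these 10 markers were lower and none higher. In the basal list 2 of 10 had the higher mean in parous mice. Of the plasma cell and B cell markers 6 of 9 were higher at that threshold and none lower. No marker of the other lists passed. Luminal progenitor scores were nonetheless separate, at 0.11 to 0.18 in parous and -0.44 to 0.04 in virgin mice (median log2 fold change 0.30). At an unadjusted p under 0.05 in limma, 5 of these 8 markers were higher and none lower. Pan-luminal scores were separate the other way, at -0.18 to -0.03 and 0.01 to 0.22 (median -0.22). At the same threshold 5 of 8 were lower and 1 higher. Over all genes 6.54% were higher and 7.49% lower at that threshold. The pan-luminal marker Krt19 had an adjusted p = 0.044 but differed less than 1.5-fold. The plasma cell and B cell scores overlapped. The part of these cells in the transporter values was not tested.

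Genes that work beside these carriers were taken as 5 lists, of which 69 of 74 genes were measured. None passed in either direction, beside 0.401% of all genes. In limma 11, or 15.9%, had an unadjusted p under 0.05, near the 14.0% of all genes. Of the 11, 7 had the higher mean in parous mice and 4 in virgin mice, beside 6.54% and 7.49% of all genes. Of 18 other amino acid and peptide carriers (median log2 fold change -0.04), Slc6a17, a carrier of neutral amino acids into synaptic vesicles, came nearest. It measured 7.86, 8.19, 7.93 and 7.74 in parous and 7.41, 7.19, 7.25 and 6.77 in virgin mice. The groups did not overlap, and the log2 fold change was 0.77 (limma adjusted p = 0.097). Slc43a2, a sodium-independent carrier of large neutral amino acids, had 0.53 (adjusted p = 0.253). The largest change of the list went the other way, -1.01 in Slc6a14 (limma adjusted p = 0.476). Virgin 2 and virgin 4 were its highest arrays.

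Of 14 other sugar, monocarboxylate and nucleotide sugar carriers (median 0.04), the monocarboxylate carriers Slc16a7 (MCT2) and Slc16a1 (MCT1), which move lactate and pyruvate, had log2 fold changes of 0.65 (adjusted p = 0.150) and 0.36 (adjusted p = 0.182). In both the 4 parous arrays were above the 4 virgin arrays. The largest change of this list went the other way, -0.86 in Slc5a9 (limma adjusted p = 0.289), with virgin 2 and virgin 4 highest. Of 9 measured genes for hexose phosphorylation and lactose synthesis (median 0.11), B4galt1, the catalytic subunit of lactose synthase, had 0.17 (adjusted p = 0.474), and the hexokinase gene Hk2 had 0.26 (adjusted p = 0.594). None of these 9 had an unadjusted p under 0.05.

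Of 8 genes for zinc binding and zinc response (median 0.06), none had an unadjusted p under 0.05 either. Tmem163, a zinc exporter of vesicles, had 0.35 (adjusted p = 0.452). The metallothionein gene Mt1, which cells induce through Mtf1 when free zinc is high, measured 11.76, 12.05, 12.04 and 11.98 in parous and 11.75, 11.82, 11.84 and 12.02 in virgin mice. The groups overlapped, and its log2 fold change was 0.10 (adjusted p = 0.760). Of 20 genes of the amino acid response (median -0.05), Cebpb, a transcription factor of mammary differentiation, had 0.41 (adjusted p = 0.231) with no overlap between the groups. Phgdh, the first enzyme of serine synthesis, had -0.53 (adjusted p = 0.306). The largest change of this list was -0.94 in Psat1 (limma adjusted p = 0.412), with virgin 2 and virgin 4 highest.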

How the data were processed

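RNA of 8 pools of total mammary cells was amplified and hybridised to Affymetrix Mouse Gene 1.0 ST arrays. The values are on the log2 scale as the authors deposited them, from the rma() function of affy (version not given in the sources used here), which corrects background, quantile normalizes between arrays and gives 1 value per probe set. RMA compresses differences of dim probe sets. Differences shared by all genes of an array are removed by the normalization. The 8 arrays limit the precision, and no column of the table was left unused.

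Of the 34760 probe sets, 21648 name 1 gene, 1313 several and 11799 none in the annotation used here. Current symbols came through the gene identifier for 21561, through an accession for 3, and 84 kept the annotation's symbol. Levels of different probe sets were not set against each other.

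Parous and virgin arrays were compared in R 4.3.3 with limma 3.58.1 (lmFit and eBayes, no covariate, 2-sided, Benjamini-Hochberg over all probe sets). A gene passed if it differed more than 1.5-fold with an adjusted p of less than 0.05. Its mean log2 value also had to exceed 2, which is 4 on the linear scale and which every probe set did. Exact 2-sided permutation tests over arrays were made with SciPy 1.17.1, and their p-values were not adjusted over genes. The procedure was tested on simulated data.

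The transporters and the 18 lists (5 of related genes, proliferation, and 12 of cell type markers) were chosen with earlier results of these data known. Named were members that passed, the 3 of each family with the smallest p, 12 carriers known from the mammary gland or as the main ones of their kind, and in each related list those that passed or else the 2 with the smallest p. Alternatives were other normalizations, variance models, thresholds, features and symbols, the replicate number as a block, and arrays left out. Protein sequences were not used here.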

Additional observations from a re-analysis of the deposited data

Results flagged for a closer look

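4 results stood out because 1 array lay far from the other 3 of its group, among 66 groups of 4 values tested; chance alone gives about 1 in 20. Slc2a8 was 7.30 on virgin 4 and 7.58 to 7.62 on the other virgin arrays. Slc7a5 was 11.90 on virgin 4 and 11.46 to 11.53 on the others. Slc39a8 was 8.64 on parous 2 and 8.21 to 8.27 on the other parous arrays. The mean centred log2 value over all 73 transporter genes was -0.027 on virgin 4 and -0.010 to -0.0071 on the other virgin arrays.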

How the results depend on the processing

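The count of transporter genes higher in parous mice was 0, and 0 to 1 when each array was left out in turn (1, Slc39a14, without virgin 1). With an unadjusted p under 0.05 in place of the adjusted p, keeping fold change and expression, 2 were higher and 1 was lower. The count lower in parous mice was 0 in every other fit. The median log2 fold change over the 73 genes, 0.03, was 0.0067 (without virgin 1) to 0.032 with an array left out and 0.014 with each array centred on its median. For Slc1 the median, 0.09, was 0.017 (without parous 4) to 0.155 (without virgin 3) with an array left out and 0.476 without dim probe sets, which left 3 genes. For Slc2 it was 0.10, and -0.011 without virgin 2 and virgin 4. Among the 25 named genes the sign turned for 5, which had no call in any fit, and over all 73 it turned for 30 with an array left out. Slc2a3 was -0.012 without virgin 2 and virgin 4. With an array left out Slc3a1 was -0.0067 to 0.209, Slc7a11 -0.115 to 0.401, Slc30a2 -0.033 to 0.043 and Slc38a2 -0.018 to 0.032. Slc30a2 was -0.011 after quantile normalization again and -0.012 after centring on array medians, and Slc38a2 was -0.013 after centring. The cause was not tested. Apart from Slc39a14 without virgin 1, the other 616 values of single genes and related lists kept their direction and side of the threshold, and the other 170 counts and medians moved by less than 1.5 times or than the spread between arrays. According to the study both groups were collected in each of its experiments. No source ties the replicate numbers to those experiments, so the numbers were not taken to pair the arrays. Deviations of same-numbered arrays from their group means correlated at -0.057 to 0.31 over all probe sets, and 4 of 8 arrays correlated best with their own number. Over the 73 genes the correlations were 0.32 to 0.44, and 8 of 8 did, a hint from the data that the numbers mark the experiments. With the replicate block the counts stayed 0 higher and 0 lower. In that fit 7 genes had an unadjusted p under 0.05 (9.59%, beside 12.8% of all probe sets), against 8 without the block. With the block the standard error of Slc7a11 was 0.082, against 0.367, so its interval was far narrower, and Slc30a4 had an unadjusted p = 0.019 (adjusted p = 0.303). Slc1a1 had an adjusted p = 0.072 and Slc39a14 an adjusted p = 0.154 in that fit. Dim genes had only compressed values, so differences in the 20 genes below the array median on every array may be understated.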
